A study of Mus musculus with 3 samples.

Results

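The genes described here encode the AP-1 and BATF transcription factors: *Jun*, *Junb* and *Jund*, *Fos*, *Fosb*, *Fosl1* and *Fosl2*, *Batf* and *Batf3*, and *Atf3*. They are 10 of the 22028 protein-coding genes of the annotation and were chosen by name. All ATAC-seq peaks that overlapped a gene body extended by 30 kb on both sides were taken, and overlapping peaks of the lists were merged into regions. This gave 69 of the 50965 regions of the series. ATAC-seq marks accessible chromatin, into which a transposase can insert sequencing adapters. The cells were stable pre/pro-B-cell lines obtained by retroviral transduction of mouse bone marrow with BCR-ABL(p185), the fusion kinase of Philadelphia-positive acute lymphoblastic leukaemia, and all 4 lines carried it. The donors were homozygous for wildtype *Cdk6* (*Cdk6*+/+, here WT) or for K43M, a mutation that takes away the kinase activity of CDK6 (*Cdk6*KM/KM, here K43M). There were 2 lines per genotype with 1 library each, called WT unnumbered, WT replicate 2, K43M replicate 1 and K43M replicate 2, and values are given in this order throughout. WT unnumbered has a peak list but no labelled sample of its own. It was placed in the WT group because the design text of the series says that the first WT line had been submitted earlier and was analysed again. A peak list holds no base calls, so the *Cdk6* allele of a line could not be checked.

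AP-1 is a dimer of leucine zipper proteins in which a JUN protein pairs with another JUN or with a FOS, BATF or ATF protein. The dimers bind the TPA response element (TRE), TGACTCA, or the cyclic AMP response element (CRE), TGACGTCA. *Fos*, *Fosb*, *Junb* and *Atf3* are immediate early genes, switched on within minutes of growth factor signalling through MAP kinases, which reach *Fos* by way of the serum response factor at a CArG box. BATF and BATF3 lack the transactivation domain of the FOS proteins and pair with JUN proteins, mostly in lymphoid and dendritic cells.

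The sequences that the results turn on are given first, from RefSeq's GRCm38 (mm10) genome, each 5′ to 3′ in the direction of its gene and free of annotated exons. Capitals mark a TRE, a CRE, the CRE variant TGACATCA, a CArG box, the ETS motif CCGGAAGT or the GC box GGGGCGGGG on either strand. The stretches directly upstream of *Fosl1*, of an inner transcript start of *Batf3* and of *Batf* are shown because the promoter peaks of these genes varied most between the lists. They lie at chr19:5447397-5447546 (+), chr1:191098238-191098324 (+) and chr12:85686519-85686668 (+).
Fosl1 upstream: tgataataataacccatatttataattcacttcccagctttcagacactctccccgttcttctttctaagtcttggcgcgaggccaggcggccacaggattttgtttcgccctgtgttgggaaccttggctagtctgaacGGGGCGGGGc
Batf3 upstream: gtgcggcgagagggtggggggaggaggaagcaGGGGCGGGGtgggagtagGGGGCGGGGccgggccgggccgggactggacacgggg
Batf upstream: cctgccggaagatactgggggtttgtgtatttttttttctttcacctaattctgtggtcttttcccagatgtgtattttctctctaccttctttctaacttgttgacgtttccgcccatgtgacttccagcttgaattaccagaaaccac
The 87 bases before the inner *Batf3* start, cut short by an annotated exon, had a G and C content of 80.5% and 2 GC boxes. Those upstream of *Fosl1* had 50.7% and 1 GC box, and those upstream of *Batf* 42.0% and none of the motifs. Over 21938 protein-coding genes, the median G and C content of the 150 bases before the gene start was 56.0%, and 11.4% of the genes had a GC box there. The *Batf3* stretch differs from these in length and in place.

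A CArG box lay within 100 bp of the summit in 4 regions of *Fos*, *Fosb* and *Junb*, all of which had a peak in all 4 lists. They are shown because the CArG box is the motif that serum response factor recognises, and a match of its letters is no evidence of binding. The windows are chr12:85473472-85473671 (+) at the *Fos* promoter, chr12:85486032-85486231 (+) downstream of *Fos*, chr7:19310271-19310470 (-) at the *Fosb* promoter and chr8:84976578-84976777 (-) inside *Junb*, near the start of a shorter *Junb* transcript.
Fos promoter: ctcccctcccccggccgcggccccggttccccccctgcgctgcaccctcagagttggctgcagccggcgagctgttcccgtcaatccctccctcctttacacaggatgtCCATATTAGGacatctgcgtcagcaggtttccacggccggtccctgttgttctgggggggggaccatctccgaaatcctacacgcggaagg
Fos downstream: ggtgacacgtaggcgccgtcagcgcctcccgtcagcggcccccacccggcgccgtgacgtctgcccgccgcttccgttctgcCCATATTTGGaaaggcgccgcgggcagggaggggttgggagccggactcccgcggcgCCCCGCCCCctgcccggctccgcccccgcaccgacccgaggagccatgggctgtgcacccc
Fosb promoter: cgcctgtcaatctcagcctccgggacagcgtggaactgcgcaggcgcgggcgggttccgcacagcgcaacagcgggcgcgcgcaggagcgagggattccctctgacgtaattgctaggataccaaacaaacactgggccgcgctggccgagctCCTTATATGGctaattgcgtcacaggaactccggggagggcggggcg
Junb inner promoter: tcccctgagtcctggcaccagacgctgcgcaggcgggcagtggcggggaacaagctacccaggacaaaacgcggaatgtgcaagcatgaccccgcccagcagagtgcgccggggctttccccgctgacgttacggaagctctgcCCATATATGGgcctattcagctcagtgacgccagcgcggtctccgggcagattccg
The stretch before the *Jun* start (chr4:95052223-95052372, -) is shown for its CRE variant. The summit of the inner *Atf3* promoter (chr1:191183365-191183564, -) is shown because its read pileup differed between the genotypes, and an intronic *Atf3* region (chr1:191193652-191193851, -) and a region far upstream of *Fosb* (chr7:19332888-19333087, -) for their TRE.
Jun upstream: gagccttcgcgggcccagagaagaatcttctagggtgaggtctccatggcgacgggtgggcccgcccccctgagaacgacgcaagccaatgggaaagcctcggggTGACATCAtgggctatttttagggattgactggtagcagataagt
Atf3 inner promoter: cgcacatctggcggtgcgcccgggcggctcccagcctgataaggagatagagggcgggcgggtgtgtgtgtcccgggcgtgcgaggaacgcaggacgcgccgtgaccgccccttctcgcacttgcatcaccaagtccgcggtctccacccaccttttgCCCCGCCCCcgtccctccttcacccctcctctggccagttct
Atf3 intron: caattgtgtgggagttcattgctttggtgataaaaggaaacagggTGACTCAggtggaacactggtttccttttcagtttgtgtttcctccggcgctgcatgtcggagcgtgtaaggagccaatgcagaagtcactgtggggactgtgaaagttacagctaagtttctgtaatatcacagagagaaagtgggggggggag
Fosb far upstream: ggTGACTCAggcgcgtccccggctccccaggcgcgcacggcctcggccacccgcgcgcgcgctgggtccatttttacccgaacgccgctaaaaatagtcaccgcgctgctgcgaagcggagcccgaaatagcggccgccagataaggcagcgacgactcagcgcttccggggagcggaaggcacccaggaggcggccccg

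The 4 lists held between 33038 and 39038 peaks, and their median fold enrichment, the authors' ratio of the summit signal to the local background of the same library, lay between 6.61 and 6.94. Lists give no read totals. The genome-wide background recovered from the deposited values was 65.3, 56.7, 55.2 and 48.4 read ends per 10 kb, so both K43M libraries were below both WT libraries. Of 8 B-lineage marker genes, 7 had a promoter peak in all 4 lists, and the exception was *Cd79b*, which had none in K43M replicate 2. None of 5 T-cell, 4 erythroid and 2 hepatocyte markers had one in any list. Of 5 myeloid markers, the lists had a promoter peak at 1, 2, 0 and 1, and *Lyz2* had one in both WT lists (fold enrichment 7.50 and 7.09) and in neither K43M list. ATAC-seq of bulk cells cannot tell a region that is open in fewer cells from one that is less open in every cell.

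The number of peaks around the AP-1 and BATF genes did not separate the genotypes. The 10 windows held 51 and 55 peaks in the WT lists and 58 and 49 in the K43M lists. The K43M lists were thus the highest and the lowest, and the WT values lay between them. The mean was 53.0 in WT and 53.5 in K43M, and the difference of 0.5 peaks was smaller than the gap of 4 between the WT lists and of 9 between the K43M lists (exact permutation test, two-sided, p = 1, where 2 against 2 lists cannot give less than 0.333). The sign of the difference depended on single lists, being -1.5 without WT unnumbered, 2.5 without WT replicate 2, -4.0 without K43M replicate 1 and 5.0 without K43M replicate 2. The peaks covered 27509 and 27168 bp in WT and 30659 and 26066 bp in K43M. They were of ordinary strength, since the median peak of these windows stood at the 54.4th, 50.6th, 53.8th and 60.3rd percentile of its list by -log10 q.

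**Figure D1:**
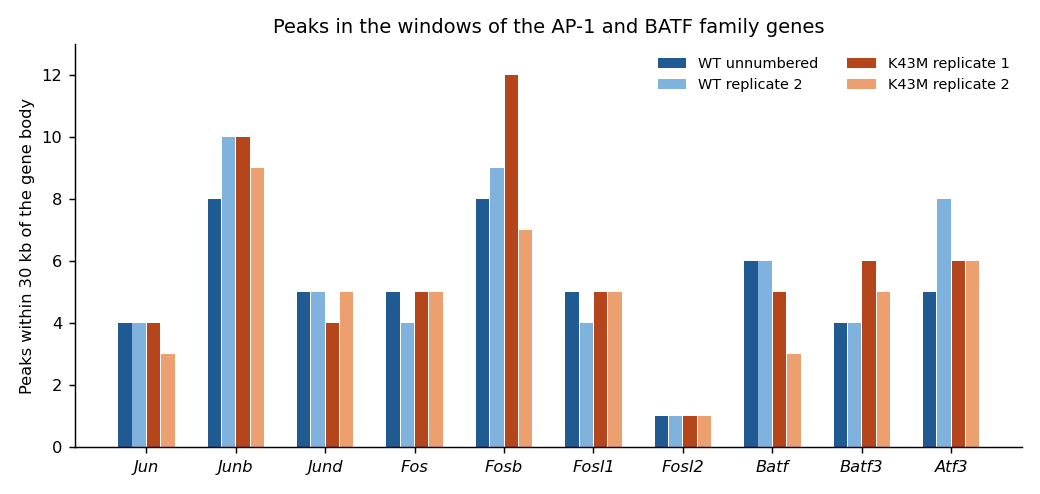
Number of peaks overlapping each gene body extended by 30 kb, by peak list, with 1 bar per list and no error bars because a list is 1 library. *Junb* and *Fosb* have 7 to 12 peaks per list, *Fosl2* has 1 in each, and for *Batf* (6, 6, 5, 3) and *Batf3* (4, 4, 6, 5) the WT and K43M lists do not overlap, as for 5.7% and 14.4% of all protein-coding genes in the same direction.

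Among single genes, *Fosb* had the widest range, with 8, 9, 12 and 7 peaks. *Junb*, whose product opposes JUN in many settings, had 8, 10, 10 and 9. The windows of *Jun*, *Jund*, *Fos* and *Fosl1* held 3 to 5 peaks in each list, and that of *Atf3* 5, 8, 6 and 6. *Fosl2* had a single peak per list in a window of 82.0 kb, at its promoter. The genotypes did not overlap for *Batf*, with 6 and 6 peaks in WT against 5 and 3 in K43M, and for *Batf3*, with 4 and 4 against 6 and 5. Over all protein-coding genes, 5.7% had fewer and 14.4% had more peaks in both K43M lists than in both WT lists, so 1 gene of 10 in either direction is close to the background. For either gene the exact permutation test gave p = 0.333, the smallest that 4 lists allow.

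Every list had a peak in 39 of the 69 regions (56.5%), beside 41.2% of all regions. A further 4 were found in both K43M lists and neither WT list (background 7.64%), and 2 in both WT lists and neither K43M list (background 4.51%). The other 24 had mixed membership, and 15 of them were seen in 1 list. At least 1 K43M-only region lay within 30 kb of *Fosb*, *Fosl1* and *Batf3*, 3 of the 10 genes, against 21.2% of all protein-coding genes. A WT-only region lay near *Jund* and *Batf*, 2 of the 10 against 11.8%. Leaving out 1 list loosens the rule for these small counts, since the list left behind then stands alone for its genotype. The counts then stay or rise through the rule itself, so they cannot show whether a region depends on a single list. The K43M-only count was 6 without WT unnumbered, WT replicate 2 or K43M replicate 1 and 9 without K43M replicate 2. The WT-only count was 7 without WT unnumbered, 6 without WT replicate 2 or K43M replicate 1 and 2 without K43M replicate 2.

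**Figure D2:**
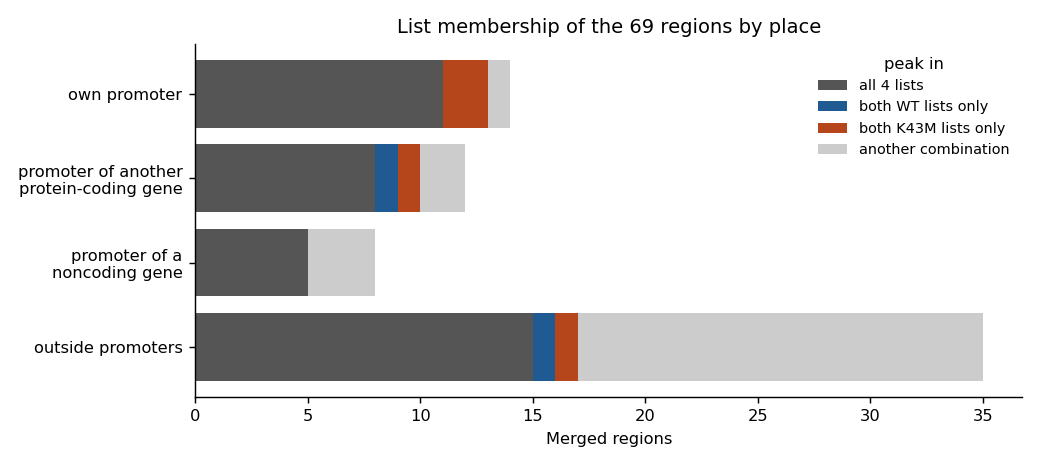
Number of merged regions in the 10 windows by place (rows) and by the lists in which they had a peak (colours). Of the 14 regions in the genes' own promoters 11 were in all 4 lists, and 15 of the 35 regions outside promoters.

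A promoter was taken as the stretch from 2000 bp before to 200 bp after any annotated transcript start. Of the 69 regions, 14 lay in the promoters of the AP-1 and BATF genes themselves, 12 in the promoter of another protein-coding gene, 8 in that of a noncoding gene and 35 outside promoters. Regions in protein-coding promoters had a peak in all 4 lists in 19 of 26 cases (73.1%), close to the 70.1% of all such regions. Outside promoters, 15 of 35 (42.9%) were in all 4 lists, beside 29.1% of all regions there. The windows of *Junb*, *Jund*, *Fosb* and *Fosl1* hold 6, 4, 2 and 7 other protein-coding genes, so a region there cannot be assigned to one gene from its position. The windows of *Jun*, *Fos*, *Fosl2* and *Batf* hold none.

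The promoters of 8 of the 10 genes had a peak in all 4 lists, where 47.5% of all protein-coding genes did. The 2 others, *Fosl1* and *Batf3*, had a promoter peak in both K43M lists and in neither WT list, a pattern shown by 1.99% of all genes. No AP-1 or BATF gene had a promoter peak in the WT lists alone (background 0.513%).

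*Jun* encodes the founding member of AP-1. The region across its start (chr4:95052000-95053007), which holds the CRE variant printed above, had a fold enrichment of 5.77, 6.39, 6.92 and 6.68. Both K43M values were above both WT values, and the limma difference of 0.17 on the log2 scale (SE 0.15) was about as large as its error. A second promoter region, 1.13 kb upstream of the start (chr4:95053114-95053531), had 5.03, 3.93, 3.75 and 4.77, and the genotypes overlapped. Its log2 difference was -0.07 (SE 0.20), and 0.11 without WT unnumbered and 0.16 without K43M replicate 1. *Jund*, which is expressed in most cells without stimulation, had 6.51, 6.60, 6.82 and 6.96 at its start (chr8:70698327-70699331). Those lists lie within a narrow range.

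*Junb* had 4 promoter regions, because its shorter transcripts start inside the gene. Their fold enrichments were low for peaks of these lists. The region at the outer start (chr8:84978664-84978963) had 3.45, 2.996, 3.54 and 3.86, and the region with the CArG box at the inner start (chr8:84976265-84976825) 4.30, 3.98, 4.31 and 4.15. Another, 1.28 kb upstream of the outer start, had 3.49, 3.62, 3.14 and 3.79. The fourth, which spans coding sequence, was missing in WT unnumbered and had 2.26, 2.90 and 2.40 in the other lists. The low ratios stood over a high local background, 14.02 to 15.38 per 200 bp at the outer start and 12.06 to 14.3 at the inner start. The summit pileups there were 54, 44, 57 and 57 and 63, 51, 65 and 57 read ends. The list medians were 26, 23, 23 and 22. By -log10 q the outer and inner regions had mean percentiles of 48.3 and 61.8.

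In the FOS group, the *Fos* promoter (chr12:85473424-85474310) with its CArG box had a fold enrichment of 9.44, 9.84, 8.26 and 8.75, so both K43M lists were below both WT lists. The limma difference was -0.18 (SE 0.15) on the log2 scale. The *Fosb* promoter (chr7:19309976-19310553), which also holds a CArG box, had 7.17, 7.17, 6.65 and 7.41, with the K43M lists on both sides of WT. *Fosl2* encodes FRA-2, and its promoter (chr5:32134954-32136089) had 6.99, 7.69, 7.14 and 7.59, where the genotypes overlapped.

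*Fosl1* encodes FRA-1, which is known as a target of MAP kinase signalling in tumours. Its region (chr19:5447502-5448087, reaching into the 5′ UTR) had no peak in WT and a fold enrichment of 4.28 and 6.36 in K43M. These are weak peaks, at the 3.17th and 33.5th percentile of their lists, with 8 and 13 read ends at the summit. The nearest peaks of the WT lists were 8863 and 8790 bp away. With only peaks of a -log10 q of at least 5, or with the same number of peaks per list, *Fosl1* was no longer K43M-only and *Batf3* remained.

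**Figure D3:**
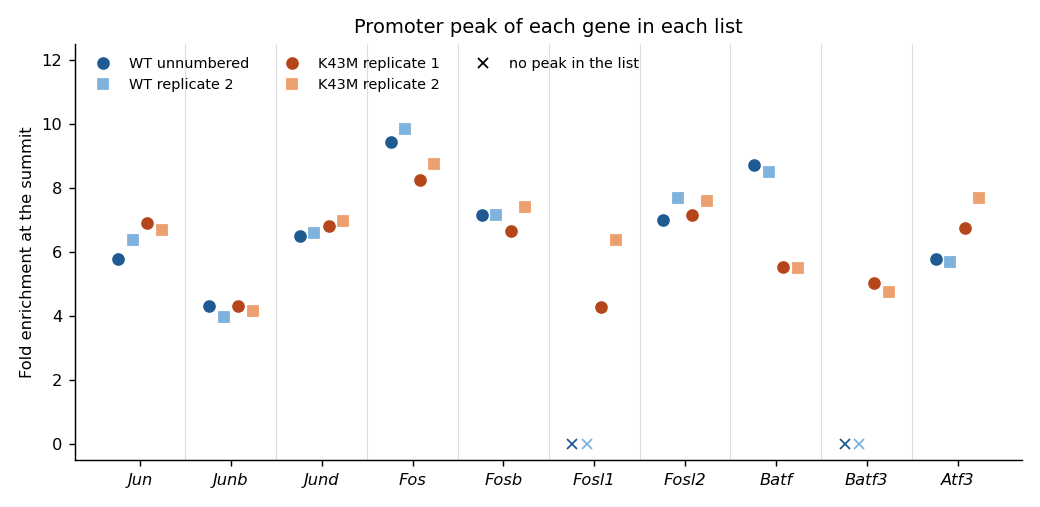
Deposited fold enrichment at the summit of the promoter peak of each gene in each list, using the promoter region with the highest mean where a gene has several. Crosses at 0 mark lists with no peak and are not measured values. *Fosl1* and *Batf3* have crosses for both WT lists, and for *Batf* the WT values of 8.73 and 8.49 lie above the K43M values of 5.51 and 5.49.

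*Batf3* encodes the factor needed for cross-presenting dendritic cells. Its K43M-only region (chr1:191098253-191098540) straddles the start of a protein-coding transcript and the GC-rich stretch printed above. The fold enrichment was 5.04 and 4.75, at the 36.7th and 35.7th percentile, and both summits had 22 read ends. The nearest WT peaks were 12046 and 11894 bp away. A second K43M-only region lay 13.4 kb downstream of the gene start (chr1:191110977-191111472), with 3.85 and 3.99 at the 3.74th and 5.57th percentile. In the same window a region inside the neighbouring gene *Nsl1*, 12.1 kb upstream (chr1:191085064-191086358), was open in all 4 lists with 9.14, 11.7, 9.06 and 8.72. Both K43M lists were below both WT lists there, with a log2 difference of -0.21 (SE 0.17) and an adjusted p of 0.691 in limma.

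*Batf* encodes a factor that shapes lymphocyte differentiation. The largest difference among the 39 regions in all 4 lists was at its promoter (chr12:85686217-85687337), where the fold enrichment was 8.73 and 8.49 in WT and 5.51 and 5.49 in K43M. The values of each genotype were close to each other and well apart from those of the other. The log2 difference was -0.64 (SE 0.15), with an unadjusted p of 0.00224 and a Benjamini-Hochberg adjusted p of 0.163 in the limma fit over all 21012 such regions. It therefore did not pass the threshold of 0.05. Over the alternatives the difference ranged from -0.93 to -0.59 and the adjusted p from 0.160 to 0.407. The summit pileup was 32 and 35 read ends against 14 and 19, and the local background 2.78 and 3.24 per 200 bp against 1.72 and 2.64.

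The recovered background of chromosome 12, which carries *Batf* and *Fos*, was lower in K43M relative to the autosomes of the same list, at -0.01 and -0.01 on the log2 scale in WT and -0.34 and -0.22 in K43M. Its part in the differences at *Batf* and *Fos* was not tested. The region 6995 bp upstream of *Batf* (chr12:85679432-85680425) had the same order, with 11.9, 12.1, 10.2 and 9.63, a log2 difference of -0.28 (SE 0.14) and an adjusted p of 0.492 in limma. The WT-only region of this window lay 42.9 kb downstream of the gene start, beyond the gene (chr12:85729449-85729739), with 6.07 and 4.22 at the 25.3rd and 2.94th percentile.

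*Atf3* encodes a stress-induced factor. Its own promoter peak was not at the outermost start but 34.6 kb further in, at the start of a shorter transcript (chr1:191182294-191183760), and the outermost start had no peak in any list. The fold enrichment was 5.78, 5.68, 6.75 and 7.69, so K43M was above WT, with a log2 difference of 0.33 (SE 0.16) and an adjusted p of 0.459 in limma. The difference was 0.18 without K43M replicate 2 and 0.18 with the mean of all peaks of a list in the region. The pileup behind these ratios differed far more. It was 22 and 20 read ends in WT and 67 and 67 in K43M, and the local background was 2.98 and 2.70 per 200 bp in WT and 9.08 and 7.84 in K43M. In the alternative fit on summit pileups the log2 difference was 1.78 (SE 0.19) with a Benjamini-Hochberg adjusted p of 0.0475 in limma. It was the only one of the 39 regions that passed in that fit, which called 0.167% of all regions. The merged region spans 1467 bp and held 1, 3, 1 and 2 peaks, so the strongest peaks compared may be different peaks within it. The strongest summits also lay apart, 186 to 286 bp from WT to K43M, while the WT summits were 60 bp and the K43M summits 40 bp from each other. In the 38 other regions the closest WT and K43M summits were at most 48 bp apart.

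**Figure D4:**
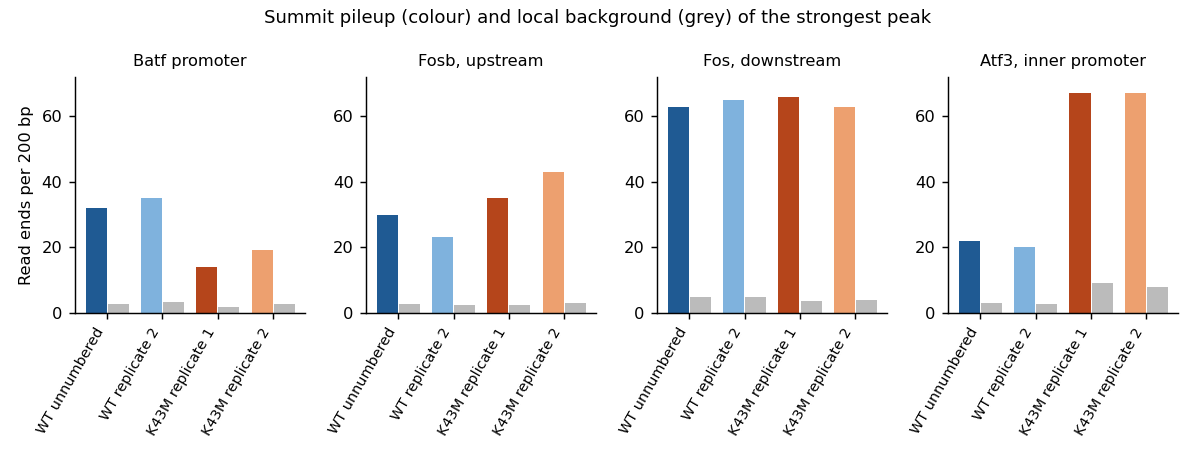
Read ends in 200 bp at the summit of the strongest peak (coloured bars) and local background per 200 bp (grey bars) in 4 regions, by list, recovered from the deposited values. At the inner *Atf3* promoter both bars are about 3 times as high in K43M as in WT, at *Batf* the pileup is lower in K43M (14 and 19 against 32 and 35), and downstream of *Fos* the pileups lie between 63 and 66 in all lists.

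Across the 39 regions open in every list, K43M was higher in 23 and lower in 16, with a median log2 difference of 0.03 beside 0.00 over all 21012 regions. The limma fit with Benjamini-Hochberg adjustment called none of them, nor any region of the series (0%). At an unadjusted p under 0.05 there was 1 higher region (background 6.39%) and 1 lower region (background 6.03%) among the 39, against 2610 of 21012 in all. Both K43M lists were above both WT lists in 7 of the 39 (background 21.3%) and below them in 6 (background 21%). The shares of these genes are thus no larger than those of the series. With 1 library per line, the p-values measure the spread between these lines.

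**Figure D5:**
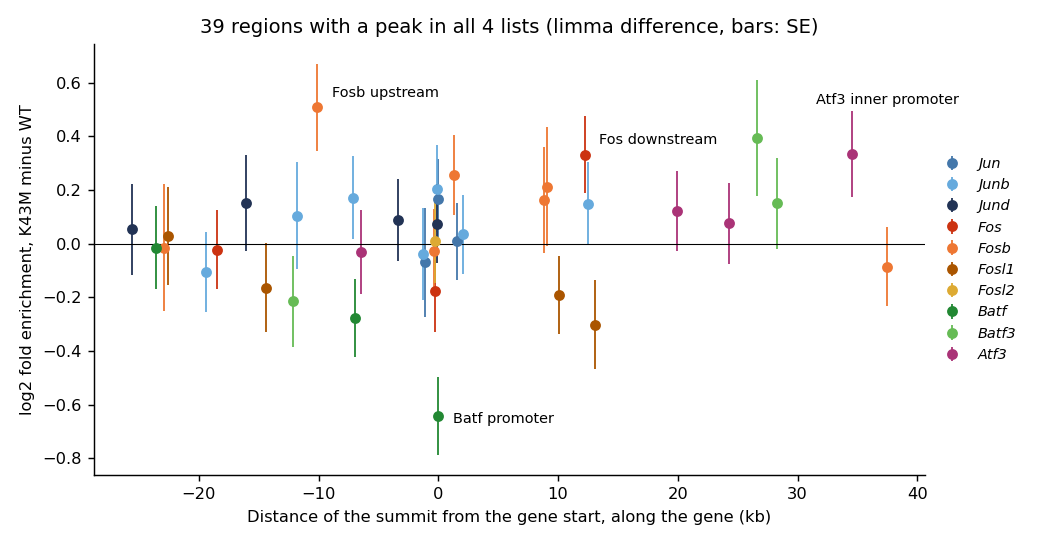
Difference of median-centred log2 fold enrichment, K43M minus WT, for the 39 regions open in every list, against the distance of the summit from the start of the gene (negative is upstream). Points are limma estimates, bars are standard errors and colours are genes. Differences lie between -0.64 at the *Batf* promoter and 0.51 upstream of *Fosb*, and none passed the adjusted threshold.

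The region with the unadjusted p under 0.05 on the higher side was 10.1 kb upstream of *Fosb* (chr7:19319673-19320343), in an exon of the noncoding gene *D830036C21Rik* outside the promoter windows. Its fold enrichment was 8.20 and 7.14 in WT and 10.3 and 11.4 in K43M. The log2 difference was 0.51 (SE 0.16), with an unadjusted p of 0.0145 and a Benjamini-Hochberg adjusted p of 0.274 in limma. The pileup had the same order, with 30, 23, 35 and 43 read ends. Over the alternatives the difference stayed positive, between 0.38 and 0.67, and the adjusted p ranged from 0.237 to 0.591.

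The strongest region of the *Fos* window was not its promoter but a region 18.5 kb upstream (chr12:85454905-85455802), with a fold enrichment of 14.3, 15.4, 15.5 and 13.7, where the genotypes overlapped. It stood at the 92.0th to 97.2nd percentile of the lists. A second strong region lay 12.2 kb downstream of the start, beyond the gene (chr12:85485784-85486482), with 11.0 and 11.4 in WT and 14.6 and 13.5 in K43M. The log2 difference was 0.33 (SE 0.14), with an unadjusted p of 0.0502 and a Benjamini-Hochberg adjusted p of 0.403 in limma. The pileups of this region were 63, 65, 66 and 63 read ends, which overlap, and the local background was 4.82 and 4.80 per 200 bp in WT and 3.58 and 3.74 in K43M. On the pileup scale the difference was 0.12 (SE 0.19).

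In 4 other windows the strongest region was the promoter of a neighbouring gene. For *Jund* it was the promoter of *Lsm4* (chr8:70672949-70673864), with 10.0, 12.3, 11.1 and 11.9. For *Junb* it was the promoter of *Rnaseh2a* (chr8:84965716-84966482), with 9.75, 8.77, 10.0 and 10.5, and for *Fosl1* the promoter shared by *Drap1* and *AI837181* (chr19:5424380-5425510), with 9.96, 9.29, 8.71 and 11.0. None of these separated the genotypes after the lists were centred. For *Fosb* the strongest region lay 1.34 kb inside the gene (chr7:19308219-19308976), outside promoters, with 8.05, 8.58, 10.8 and 9.07, where K43M was above WT but the log2 difference of 0.26 (SE 0.15) had an adjusted p of 0.553 in limma. For *Atf3* it was the promoter of the noncoding gene *D730003I15Rik*, 6.44 kb upstream (chr1:191223925-191225350), with 8.48, 7.66, 7.63 and 8.12. An intronic *Atf3* region (chr1:191197872-191198662) came close to it, with 6.40, 6.93, 7.23 and 7.24.

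The genotype-only regions not yet described lay in promoters of neighbouring genes. A K43M-only region in the *Rtn2* promoter, 27.5 kb downstream of the *Fosb* start (chr7:19282390-19282766), had 8.08 and 8.05 at the 53.8th and 60.3rd percentile. It was the only one of the 6 genotype-only regions with both peaks above the median of their lists by -log10 q. The nearest WT peaks were 9693 and 9991 bp away. A WT-only region in the promoter of *Gm3336*, 19.5 kb downstream of the *Jund* start (chr8:70718341-70718626), had 5.04 and 4.68 at the 13.4th and 11.6th percentile, with 12 read ends at either summit.

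The AP-1 motifs themselves were searched within 100 bp of the strongest summit of each region, on both strands. A TRE was found in 8 of the 69 regions (11.6%, 95% Wilson interval 5.99 to 21.2%), beside 5.93% of 50867 regions of the series. A CRE was found in none (at most 5.27% by the same interval) beside 1.10%, and the CRE variant in 1, the *Jun* promoter, beside 1.52%. Of the 8 regions with a TRE, 4 were in all 4 lists. They were the intronic *Atf3* region printed above, the region upstream of *Atf3*, the region 22.9 kb upstream of *Fosb* and one 16.0 kb upstream of *Jund*. The *Atf3* intron region had a fold enrichment of 4.79, 5.36, 5.35 and 5.31, and the *Fosb* region 8.06, 6.19, 9.11 and 5.35, and the genotypes overlapped in both after the lists were centred. None of the 14 own-promoter regions held a TRE or CRE in this window, which says only that these letters were not there.

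CArG boxes were found in 4 of the 69 regions (5.80%, interval 2.28 to 14.0%), beside 0.812% of all regions. The 4 are the printed *Fos*, *Fosb* and *Junb* sites, and none of them passed the adjusted threshold of the limma fit. A GC box was found in 9 regions (13.04%, interval 7.02 to 23.0%), beside 5.93%, and the ETS motif in 1 (1.45%) beside 2.23%. Regions within one window share their surroundings, so the intervals describe these regions only.

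Genes related to the AP-1 genes by their leucine zipper, and kinases and factors upstream of AP-1, were looked at by their promoters. Of 31 related leucine zipper genes, 23 had a promoter peak in all 4 lists, beside the 47.5% of all genes. These include *Creb1*, *Atf2*, *Bach1*, *Bach2* and *Batf2*. The 3 K43M-only genes (background 1.99%) were *Maf*, *Cebpb* and *Cebpd*, the latter pair known for myeloid and inflammatory gene programmes. Their peaks were weak. *Maf* had a fold enrichment of 3.91 and 3.81 at the 1.67th and 0.832th percentile, *Cebpb* 3.85 and 5.50 at the 10.8th and 45.0th, and *Cebpd* 5.29 and 5.74 at the 30.3rd and 34.8th. No gene of this list was WT-only. *Cebpa* and *Hlf* were among the genes without a promoter peak in any list. *Jdp2*, which lies between *Fos* and *Batf* on chromosome 12 and encodes a JUN partner, lacked one in WT replicate 2, and *Cebpe* lacked one in K43M replicate 2.

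Of 14 upstream kinases and factors, 13 had a promoter peak in all 4 lists, among them *Mapk3*, which encodes an ERK kinase, the JNK genes *Mapk8* and *Mapk9*, and *Srf*, *Elk1*, *Elk3* and *Elk4*, which encode serum response factor and its ternary complex partners. The exception was *Mapk10*, the JNK gene of the nervous system, which was WT-only (background 0.513%) with a fold enrichment of 7.80 and 4.69 at the 44.1st and 7.52nd percentile.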

How the data were processed

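ATAC-seq libraries of 4 lines were analysed from the peak lists alone. According to the methods of the study and the submitters' processing notes, the authors trimmed reads with Trimmomatic 0.36, mapped them to mm10 with BWA 0.7.15 and called peaks per library with MACS2 2.1.0. The deposited values of each peak are the fold enrichment over local background, a ratio, and the -log10 p and -log10 q, which the authors' caller gave within each library. Peaks overlapping by at least 1 bp were merged into regions. Promoters came from GENCODE mouse release 21 and sequences from RefSeq's GRCm38.p6 genome. Summit pileup and background were recovered from fold enrichment and -log10 p by the caller's Poisson model, which succeeded for 100% of peaks (tolerance 0.001). Depth is otherwise unknown.

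Fold enrichments of regions with a peak in all 4 lists were compared by limma 3.58.1 (R 4.3.3) on log2 values, centred on the median of each list, with the strongest peak of a list standing for a region and Benjamini-Hochberg adjustment over all 21012 regions at 0.05. Peak numbers were compared by exact permutation over lists. List membership was counted without a test. Percentiles rank the peaks of one list by -log10 q. The regions named in full are the promoter region of every gene, the strongest region of each window by mean percentile, the genotype-only regions and those past the limma threshold. The pathway genes named are those with a genotype-only promoter peak. Some pathway genes are not reported here by name. Further regions, those with the *Fosb* and *Fos* differences, those with motifs and the second regions of a window, were chosen after their values were seen, as were the other pathway genes named. Genes, lists and comparisons were chosen with earlier results of these data known. The code was tested on simulated data. Python 3.11.15 was used with pandas 2.3.3, scipy 1.17.1 and pysam 0.24.0.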

Additional observations from a re-analysis of the deposited data

How the results depend on the processing

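Leaving out 1 list at a time moved the difference in window peaks between -4.0 and 5.0, the K43M-only regions between 6 and 9, the WT-only regions between 2 and 7 and the WT-only pathway promoters between 1 and 2. With the same number of peaks per list, the difference in window peaks was -2.0, and there was 1 WT-only region, 1 K43M-only promoter of the AP-1 and BATF genes and 1 K43M-only pathway promoter. With a -log10 q of at least 5, there was no WT-only region (0) and no WT-only pathway promoter (0), and 1 K43M-only promoter of the AP-1 and BATF genes. A flank of 10 kb left 0 WT-only regions, and one of 50 kb gave 4 and 8 K43M-only regions. Promoters of 500 bp left 0 WT-only pathway promoters. Regions with both peaks above the median of their lists by -log10 q, a choice made after seeing the data, numbered 1 for K43M and 0 for WT. The share of regions with a TRE or CRE was 5.80% within 50 bp of the summit, beside 4.18% of all regions. Within 100 bp it was 11.6%, beside 6.99%. The fit on summit pileups called 1 region, at *Atf3*, with a difference of 1.78. Genotype-only counts stay or rise when a list is left out, because the rule is then looser. The causes of the other changes were not tested. The limma fit called 21 regions of the series without WT unnumbered and 29 without WT replicate 2, none of them near these genes. No paired analysis was run, because the labels name no pairs of WT and K43M lines and the groups share fewer than 2 replicate numbers. With 2 lists per genotype, small differences could not be detected, and a missing peak is not a measured 0.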
